A study of Mus musculus with 6 samples.

Results

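The 10 genes described here, all of epithelial cell architecture, were followed in RNA sequencing of whole mouse ovaries: the simple keratin genes Krt7, Krt8, Krt18 and Krt19, the plakin genes Ppl, Evpl and Dsp, the armadillo protein genes Jup and Pkp2, and the cadherin gene Dsg2. They were taken by symbol, and all 10 were present once among the 46078 genes in each table. The libraries were 3 labelled control and 3 labelled CTX, short for cyclophosphamide, a DNA-alkylating cancer drug known to damage ovaries. All came from ovaries of C57BL/6 mice aged 8 to 9 weeks. The sources used here do not give the dose, the route, the interval since treatment or the stage of the cycle. The labels do not state that each library is a different animal, so p-values reflect the spread among these samples alone, and that spread may be technical.

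Keratins are intermediate filament proteins that assemble as pairs of a type I and a type II chain. The simple keratins of single-layered epithelia pair the type II chains Krt8 and Krt7 with the type I chains Krt18 and Krt19. Desmosomes are junctions that anchor these filaments at the cell surface: cadherins such as desmoglein bridge neighbouring cells, plakoglobin and plakophilin bind the cadherin tails, and desmoplakin ties the plaque to the filaments. Periplakin and envoplakin are related plakins, known as partners in the cell periphery of stratified epithelia. In the ovary, simple keratins are known from the surface epithelium, the mesothelial layer that covers the organ. Of the 10 genes, Jup, Pkp2 and Dsg2 belong to the desmosome without being plakins.

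The values were RPKM, reads scaled by gene length and by library depth, so levels can be compared between genes. Where 3 values are given for a group, they are those of replicates 1, 2 and 3 in that order. The depth implied by the tables was 15868000 to 16792000 reads for control and 17012000 to 22274000 for CTX. Fold changes are on log2(RPKM + 1), CTX minus control with a standard error (SE), and understate the change of low genes. The genes were chosen by their RPKM in this same contrast: Ppl for its low level in CTX, and the others, with earlier results known, to ask whether they follow it. Their values in this contrast are therefore a description without a test. The linear model over all genes (limma, Benjamini-Hochberg adjusted p under 0.05) called 0 of 14535 tested genes (0%), and none of the 10. At an unadjusted p under 0.05 it had 501 of the 14535 genes, 333 lower and 168 higher in CTX. This share is below the 0.05 that such a cut-off would be expected to pass if no gene differed. By markers of ovarian cells the libraries did not line up with their labels: luteal sums were 7551 to 9668 RPKM in controls 1 and 2 and CTX 1, and 3010 to 4091 in control 3 and CTX 2 and 3, and oocyte and granulosa sums ran the other way.

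The 10 genes did not move as a block. Every CTX library lay below every control for Ppl and Krt7 and above every control for Pkp2, while the groups overlapped for the other 7. Over all genes tested, the groups did not overlap in 8.83%, with 5.5% lower and 3.32% higher in CTX. The fitted fold change was negative for 7 genes and positive for Krt8, Dsp and Pkp2, with a median of -0.22 against -0.01 over all genes tested. Of all genes tested, 51.2% had a negative fold change. In whole tissue, fewer cells of a type and less RNA per cell cannot be told apart.

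**Figure D1:**
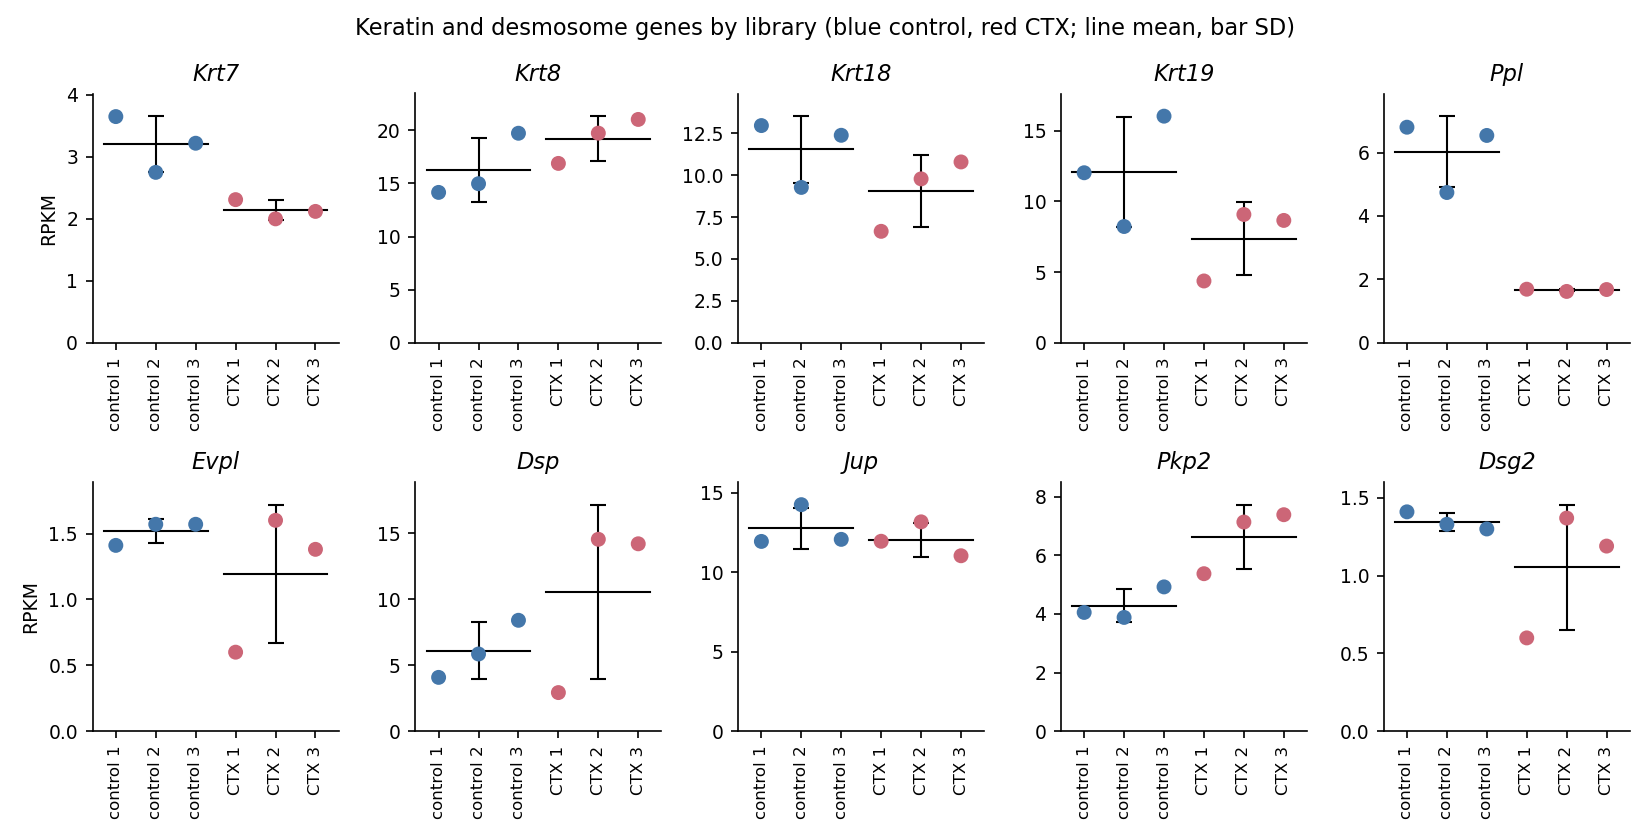
RPKM (vertical axis of each panel, from 0) of the 10 genes in the 3 control libraries (blue) and the 3 CTX libraries (red), with the group mean as a line and the SD as a bar. Ppl sat at 4.74 to 6.80 in control and 1.62 to 1.69 in CTX, whereas Dsp spread from 2.93 to 14.53 within the CTX libraries.

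Ppl encodes periplakin, a plakin that links intermediate filaments to the cell edge. Its levels were 6.80, 4.74 and 6.54 RPKM in control against 1.69, 1.62 and 1.68 in CTX. The controls differed among themselves while the 3 CTX libraries lay almost on top of each other, with a wide gap between the groups. The mean was 6.03 ± 1.12 in control and 1.66 ± 0.0379 in CTX (SD, n = 3 each here and below), a control level 3.62 times that in CTX and a log2 fold change of -1.39 ± 0.16 (SE). These levels stood for roughly 518 to 757 reads in control and 197 to 249 in CTX. Ppl lies on chromosome 16 (5086291 to 5132421, minus strand, mm10), with 1 base between its end and that of Ubn1, a gene of the opposite strand that encodes the nuclear protein ubinuclein. Ubn1 had 18.4, 16.9 and 18.0 RPKM in control and 13.5, 19.3 and 18.6 in CTX, so its groups overlapped.

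Evpl encodes envoplakin, the plakin that pairs with periplakin. Its levels were 1.41, 1.57 and 1.57 RPKM in control against 0.6, 1.6 and 1.38 in CTX. Only CTX 1 stood apart, and CTX 2 was the highest of all 6 libraries. The log2 fold change of Evpl was -0.23 ± 0.22 (SE), -0.02 without CTX 1 and -0.37 without CTX 2. The ratio of Ppl to Evpl was 4.82, 3.02 and 4.17 in control against 2.82, 1.01 and 1.22 in CTX. Thus Ppl stood above Evpl in every library, by least in CTX 2 and 3, and the ratio of these partners did not overlap between the groups. Evpl lies on chromosome 11 (116220559 to 116238077, minus strand).

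Dsp encodes desmoplakin, the plakin that every desmosome contains. Its levels were 4.08, 5.85 and 8.4 RPKM in control against 2.93, 14.53 and 14.19 in CTX. The lowest and the highest library were both CTX, so the mean of 10.6 ± 6.6 in CTX against 6.11 ± 2.17 in control describes no single library of the CTX group. The log2 fold change was 0.50 ± 0.57 (SE), 1.16 without CTX 1, 0.17 without CTX 2, 0.18 without CTX 3 and 0.28 without control 1. Summed marker genes of other cells moved with Dsp. The summed RPKM of 8 oocyte markers, led by Padi6 and Gdf9, was 155, 131 and 311 in control against 95.8, 361 and 350 in CTX. The sum of 8 granulosa markers, led by Inha and Amh, was 1069, 934 and 2656 in control and 646, 2407 and 2319 in CTX. Both sums were lowest in CTX 1 and highest in control 3 and CTX 2 and 3, as Dsp was, and no marker of either list was at 0. The theca sum (931, 846 and 1319 in control, 697, 1629 and 1637 in CTX) had the same lowest and highest libraries. Most of it was Aldh1a1, which like Ptch1 was lowest in CTX 1, whereas Cyp17a1 and Insl3 were lowest in control 2. Insl3 had 16.9 RPKM in CTX 1, above every control. The oviduct epithelium sum (7.93, 6.78 and 13.3 in control, 5.85, 18.3 and 20.0 in CTX) also had these lowest and highest libraries, and most of it was Tppp3. Ccdc39 of the same list had 1.80, 1.83 and 2.40 in control and 1.39, 1.74 and 2.25 in CTX. Foxj1, which defines ciliated cells, was at most 0.21 RPKM. The part of any of these cells in the values of Dsp was not tested. Dsp lies on chromosome 13 (38151294 to 38198577, plus strand) and shares 499 of its 9659 exonic bases with Gm10129 on the other strand, which had at most 0.49 RPKM.

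Jup encodes plakoglobin, which serves both desmosomes and adherens junctions, and was the steadiest of the 10. Its levels were 11.93, 14.24 and 12.06 RPKM in control against 11.94, 13.16 and 11.03 in CTX. The highest library was 1.29 times the lowest, with a log2 fold change of -0.07 ± 0.12 (SE) that came to 0.002 without control 2 and to -0.14 without CTX 2. Pkp2, encoding plakophilin 2 of the desmosomal plaque, had 4.05, 3.88 and 4.92 RPKM in control and 5.37, 7.13 and 7.38 in CTX. All CTX libraries lay above all controls, and CTX 1 exceeded control 3 by less than CTX 2 and 3 did. The means of Pkp2 were 4.28 ± 0.558 and 6.63 ± 1.1, a CTX level 1.55 times that in control and a log2 fold change of 0.52 ± 0.16 (SE). The ratio of Pkp2 to Jup was 0.339, 0.272 and 0.408 in control against 0.45, 0.542 and 0.669 in CTX, without overlap. The ratio of Dsp to Jup was 0.342, 0.411 and 0.697 in control and 0.245, 1.1 and 1.29 in CTX, and overlapped. Jup lies on chromosome 11 (100368958 to 100397763, minus strand) and Pkp2 on chromosome 16 (16213318 to 16272712, plus strand).

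Dsg2, encoding desmoglein 2, the desmosomal cadherin of simple epithelia, had the lowest level of the 10. It had 1.41, 1.33 and 1.30 RPKM in control against 0.6, 1.37 and 1.19 in CTX. As with Evpl, CTX 1 stood apart from the other 5 libraries, and the log2 fold change of -0.21 ± 0.19 (SE) came to -0.04 without it and to -0.33 without CTX 2. CTX 1 was the lowest library for 5 of the 10 genes (Krt18, Krt19, Evpl, Dsp and Dsg2), but also for 41.9% of all genes tested, so this share of the 10 is near that of genes at large. The gene lies on chromosome 18 (20558074 to 20604521, plus strand).

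With Jup, the keratin genes Krt8, Krt18 and Krt19 had the highest mean levels of the 10. The type II chain gene Krt8 had 14.16, 14.98 and 19.73 RPKM in control against 16.89, 19.74 and 21.03 in CTX. Control 3 lay among the CTX libraries and the groups overlapped, with means of 16.3 ± 3.01 and 19.2 ± 2.12 and a log2 fold change of 0.23 ± 0.16 (SE), 0.15 without control 1 and 0.37 without control 3. Its type I partner Krt18 had 12.96, 9.27 and 12.38 in control and 6.65, 9.78 and 10.79 in CTX. Here CTX 1 was lowest and control 2 lay within the CTX range, with means of 11.5 ± 1.98 and 9.07 ± 2.16 and a log2 fold change of -0.33 ± 0.21 (SE). Without CTX 1 the change of Krt18 was -0.14.

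Krt19, the other type I chain, had 12.02, 8.22 and 16.02 RPKM in control against 4.37, 9.07 and 8.65 in CTX. Its libraries spread 3.67-fold, control 2 lay below CTX 2 and 3, and the log2 fold change was -0.66 ± 0.32 (SE), or -0.36 without CTX 1. Krt7, the other type II chain, had 3.65, 2.75 and 3.22 in control and 2.31, 2.0 and 2.12 in CTX. It was the only one of the 4 keratins whose groups did not overlap. The means of Krt7 were 3.21 ± 0.450 and 2.14 ± 0.156, a control level 1.5 times that in CTX and a log2 fold change of -0.42 ± 0.14 (SE). The type II genes Krt7 and Krt8 thus had fold changes of opposite sign.

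The balance between partner chains is given by ratios within a library. The ratio of Krt8 to Krt18 was 1.09, 1.62 and 1.59 in control against 2.54, 2.02 and 1.95 in CTX. Every CTX library had a higher ratio than every control, with means of 1.43 ± 0.296 and 2.17 ± 0.323. The ratio of Krt8 to Krt19 was 1.18, 1.82 and 1.23 in control and 3.86, 2.18 and 2.43 in CTX, again without overlap. The ratio of the type I genes Krt18 and Krt19 overlapped between the groups (0.773 to 1.13 in control and 1.08 to 1.52 in CTX). Of the 7 ratios computed, 5 did not overlap between the groups, among them Dsp over Ppl (0.60 to 1.28 in control and 1.73 to 8.97 in CTX). Ratios that hold Ppl or Pkp2 in part restate genes whose own groups did not overlap. All ratios were chosen after the values were seen and come from the same values as the fold changes. They carry no test and were not set against other gene pairs.

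**Figure D2:**
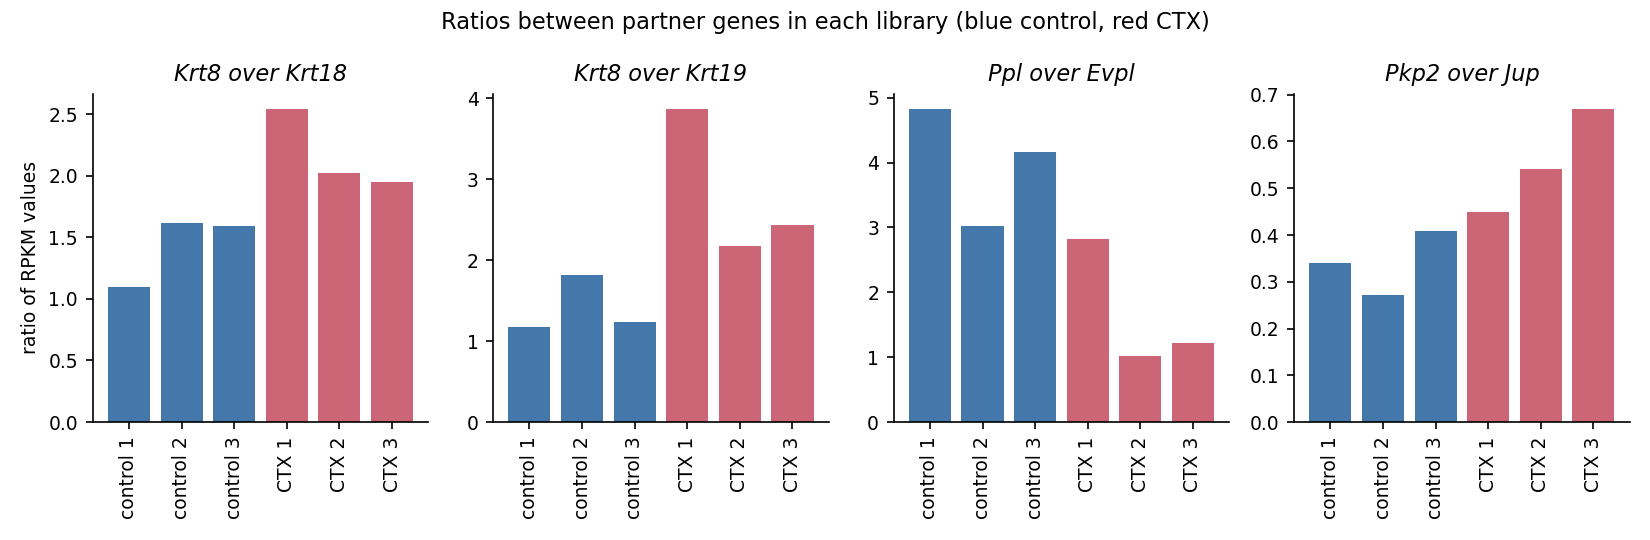
Ratios of RPKM values (vertical axes, from 0) of 4 gene pairs in each control library (blue) and CTX library (red). Krt8 over Krt18 was 1.09 to 1.62 in control and 1.95 to 2.54 in CTX, and Ppl over Evpl was 3.02 to 4.82 in control and 1.01 to 2.82 in CTX.

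Krt8 (chromosome 15, 101996698 to 102004482, minus strand) and Krt18 (102028180 to 102032027, plus strand) are neighbours, with 23697 bases between them and their starts facing each other. Krt7 lies on the same chromosome (101411043 to 101430313, plus strand), and Krt19 with the type I genes of chromosome 11 (100140810 to 100148665, minus strand). Of other type I genes of chromosome 11, Krt13 and Krt15 reached at most 0.07 and 0.10 RPKM, Krt12 1.04, Krt10 2.53 and Krt20 4.22. On the opposite strand, Krt7 shares 77 exonic bases with Gm671, Krt8 101 with Gm36026 and Dsg2 330 with Gm16090, and without a stated strand use reads there cannot be told apart.

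Sequence before the start was read from RefSeq on GRCm38.p6, the build of mm10, for the 5 of the 10 genes that matched: Krt7, Krt8, Krt18, Dsp and Jup. The RefSeq starts of Krt7, Krt8 and Krt18 lie within the gene spans given above. Krt8 and Krt18 are shown because their ratio differed between the groups, Krt7 because its groups did not overlap, and Dsp because it spread most between libraries. Each line runs 5′ to 3′ towards the start and stops before the first base that GENCODE M21 places in a UTR. This left out 140 of the 250 bases for Krt8, 36 for Krt18 and 1 for Krt7. Capitals mark the GC box GGGCGG on either strand.
Krt8, chr15:102004483-102004592, minus strand: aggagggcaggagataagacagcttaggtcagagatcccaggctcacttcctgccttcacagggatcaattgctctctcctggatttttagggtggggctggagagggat
Krt18, chr15:102027966-102028179, plus strand: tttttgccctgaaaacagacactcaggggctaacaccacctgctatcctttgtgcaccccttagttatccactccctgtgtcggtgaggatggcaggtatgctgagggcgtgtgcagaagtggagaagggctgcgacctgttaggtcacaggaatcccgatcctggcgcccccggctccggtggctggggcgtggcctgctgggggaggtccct
Krt7, chr15:101412153-101412401, plus strand: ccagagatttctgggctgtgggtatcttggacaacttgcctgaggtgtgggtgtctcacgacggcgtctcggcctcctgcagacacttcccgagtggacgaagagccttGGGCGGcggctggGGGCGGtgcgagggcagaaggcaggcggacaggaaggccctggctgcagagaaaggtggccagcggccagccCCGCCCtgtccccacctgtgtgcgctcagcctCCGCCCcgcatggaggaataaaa
Dsp, chr13:38151044-38151293, plus strand: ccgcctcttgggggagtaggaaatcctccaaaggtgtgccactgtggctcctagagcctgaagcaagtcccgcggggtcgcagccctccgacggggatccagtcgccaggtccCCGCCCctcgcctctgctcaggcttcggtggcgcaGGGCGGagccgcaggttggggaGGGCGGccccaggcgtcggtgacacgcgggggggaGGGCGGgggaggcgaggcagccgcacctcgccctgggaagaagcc

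In the full windows of 250 bases before the RefSeq start, GGGCGG matched 4 times in Krt7, 4 times in Dsp and 2 times in Jup, and 0 times in Krt8 and Krt18. The same letters occur in 32.7% of the 32851 windows of this length in the table. An E-box, CANNTG, matched 2 times in Krt8, 1 time in Krt18, 1 time in Krt7 and 0 times in Dsp and Jup. Of all windows, 66.2% had a match. The letters TGANTCA of AP-1 and TATAAA of a TATA box were in none of the 5 windows, and are in 6.75% and 12.4% of all. Both strands were searched, and no matches of different motifs overlapped.

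How alike the 10 genes were over the 6 libraries was measured by the root mean square difference between their profiles of log2(RPKM + 1), each centred on its own mean. This is a distance in log2 units, where 0 means parallel profiles and genes of small spread lie close to each other. Krt7 (0.49), Krt19 (0.50) and Krt18 (0.56) were nearest to Ppl among the 10, at ranks 178, 195 and 516 of 14534 genes. Dsp was farthest from Ppl (1.19, rank 14269), followed by Pkp2 (0.97) and Krt8 (0.83). Evpl, the partner of Ppl, lay at 0.64, with rank 1894. Jup, the steadiest of the 10, lay at 0.70, so even the nearest of the 10 were only somewhat closer to Ppl than a nearly flat profile. The keratins other than Krt8 were thus nearer to Ppl than the remaining desmosome genes were. The closest pairs of the 10 were Evpl with Dsg2 (0.07), Krt18 with Dsg2 (0.16) and Krt8 with Pkp2 (0.16).

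**Figure D3:**
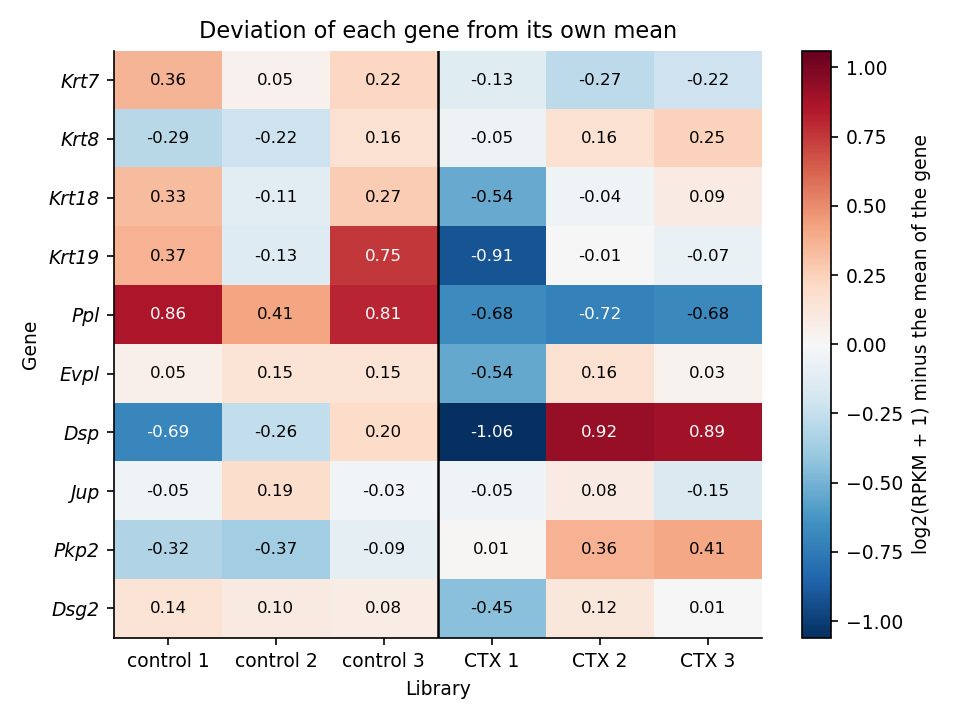
Deviation of log2(RPKM + 1) from the mean of each gene (rows) in each library (columns), with red above and blue below the mean. Ppl was above its mean in all controls and 0.68 to 0.72 below it in all CTX libraries, whereas Dsp was 1.06 below in CTX 1 and 0.92 and 0.89 above in CTX 2 and 3.

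The 5 genes nearest to Ppl of all tested were Srd5a2 (distance 0.15), encoding a steroid 5-alpha-reductase, Gm13522 (0.16), an antisense transcript gene, Coro2a (0.19), encoding an actin-binding coronin, Gm37261 (0.20), an unverified gene model, and Slc27a6 (0.22), encoding a fatty acid transport protein. None of them encodes a keratin or a desmosome protein. These genes were picked by likeness to the profile of Ppl, so their lower level in CTX follows from that choice. Srd5a2 had 6.32, 5.31 and 6.76 RPKM in control against 2.52, 1.58 and 1.86 in CTX, at levels near those of Ppl. Gm13522 had 3.45, 1.66 and 2.36 RPKM in control against 0.12, 0.10 and 0.39 in CTX, and reads in the exon that it shares in part with Neb, the nebulin gene on the other strand, cannot be told apart. The nearest genes to Krt8 were Tmem17 (0.02), Kcne4 (0.03), Mpp6 (0.04), Amotl2 (0.04) and Trim27 (0.04), encoding a ciliary membrane protein, a potassium channel subunit, a membrane scaffold protein, an angiomotin-like protein and a ubiquitin ligase. Amotl2 had 14.4, 15.4 and 19.4 RPKM in control and 18.2, 20.0 and 21.0 in CTX, close to Krt8 in level as well.

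Other junction and filament genes were taken from 8 lists of 98 entries, of which 97 were found and 53 passed the filter (RPKM of 1 or more in 3 or more libraries). Limma called 0 of the 53 in either direction. Fold changes were negative in 34 and positive in 19, with a median of -0.08. The groups did not overlap in 3 of them: Epcam was lower in CTX, and Spint2 and Lmnb2 were higher. This is 1 of 53 lower and 2 of 53 higher, against 5.5% and 3.32% of all genes tested. Together, 3 of 53 is a smaller share than the 8.83% of all genes tested.

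**Figure D4:**
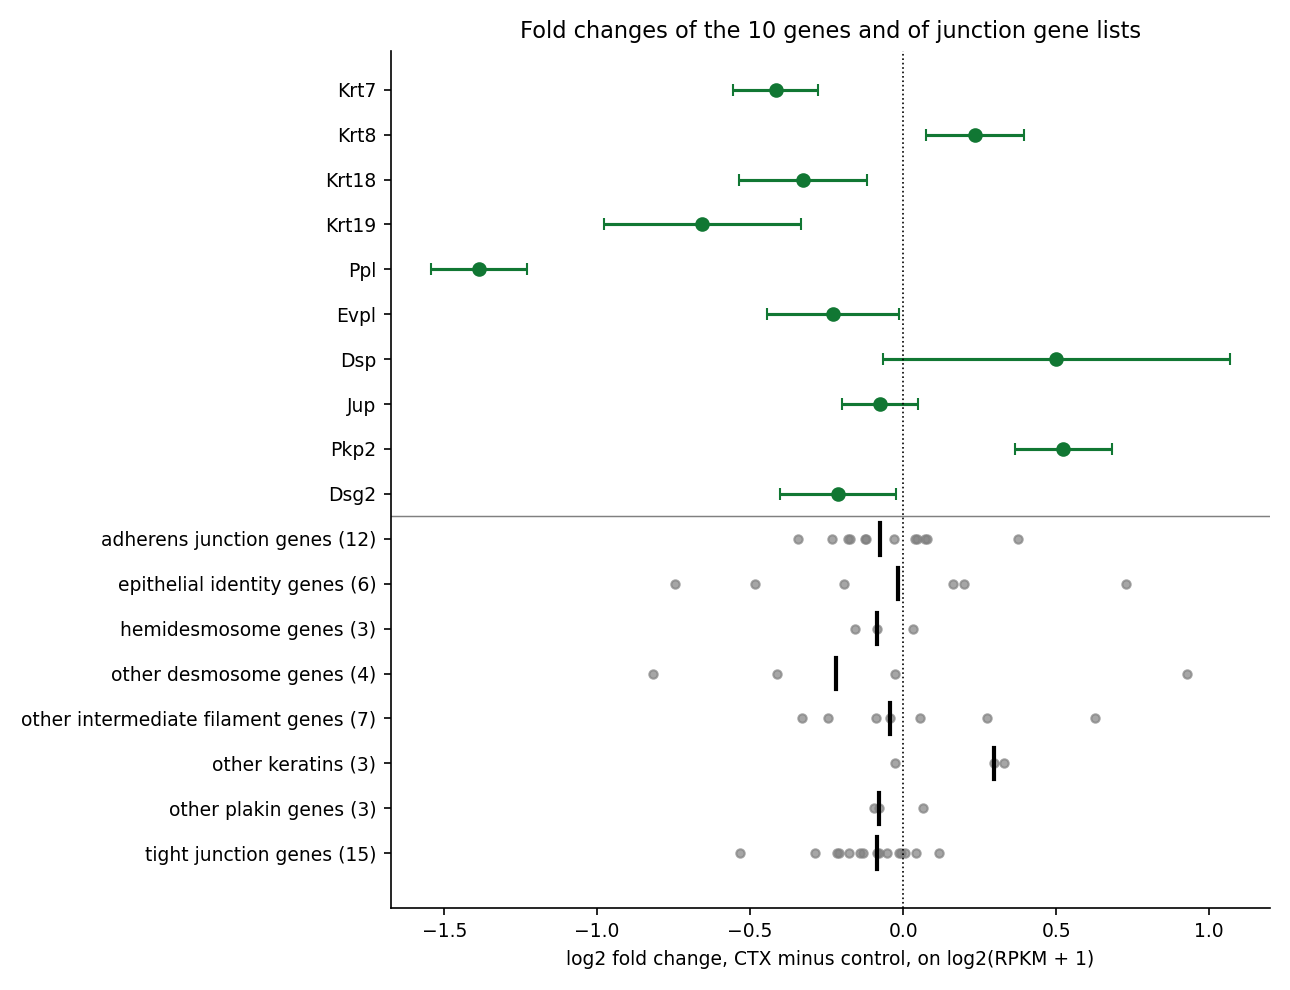
Log2 fold change, CTX minus control (horizontal axis), of the 10 genes with the SE as a bar (top) and of the tested members of 8 lists as grey points, with the list median as a black line and the number tested in brackets. Ppl at -1.39, a gene chosen for its low level in CTX, lies to the left of every listed gene. The list medians lie between -0.22 and 0.30.

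Of 13 other desmosome genes only 4 passed the filter, 3 negative and 1 positive. Perp, a tetraspan membrane protein gene of desmosomes, had 3.44, 4.64 and 7.99 RPKM in control against 5.05, 15.25 and 14.78 in CTX, high in the libraries where Dsp was high. Dsc2, encoding the cadherin desmocollin 2, had 12.0, 16.7 and 1.09 in control and 14.7, 1.22 and 1.54 in CTX, the reverse order. Kazn, encoding kazrin, which binds periplakin, had 2.89, 3.21 and 3.39 and then 2.3, 3.71 and 3.38, with overlap. Cdsn, encoding corneodesmosin of the skin, had 1.2, 2.09 and 0.29 and then 1.24, 0.23 and 0.35. The remaining 9, among them desmogleins and desmocollins of stratified epithelia, stayed below an RPKM of 1 in every library. Summed luteal markers, led by Hsd3b1 and Cyp11a1, were 7551, 8150 and 4091 RPKM in control and 9668, 3139 and 3010 in CTX, high where Dsc2 was high, and their part in its values was not tested.

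The tested plakin genes outside the 10 had overlapping groups. Plec, encoding plectin, had a log2 fold change of -0.09 ± 0.19 (SE), Macf1 of -0.08 ± 0.15 and Dst of 0.06 ± 0.15. Of 18 other keratins 3 passed the filter, with Krt20 at 0.92 to 3.80 RPKM in control and 1.29 to 4.22 in CTX, Krt10 at 1.11 to 1.96 and 1.95 to 2.53, and Krt79 at 1.14 to 1.62 and 0.79 to 1.61. Of the basal keratins of stratified epithelia, Krt5 was listed at 0 in all 6 libraries and Krt14 reached at most 0.32 RPKM. Of 8 other intermediate filament genes 7 passed, 4 negative and 3 positive. Vim, encoding vimentin of mesenchymal cells, had 121, 128 and 110 RPKM in control and 150, 85.2 and 79.3 in CTX, and the lamin genes Lmnb1 and Lmna overlapped. Lmnb2, encoding lamin B2, had 9.50, 10.89 and 9.78 and then 13.71, 11.56 and 11.86.

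Adherens and tight junction genes overlapped between the groups in all tested members, 12 of 13 and 15 of 20 listed. In the adherens list 7 were negative and 5 positive (median -0.08, and 0.04 without CTX 1), and the catenin genes Ctnnb1 (-0.18 ± 0.24 SE) and Ctnna1 (-0.12 ± 0.25) and the vinculin gene Vcl (-0.03 ± 0.34) were the most abundant. In the tight junction list 12 were negative and 3 positive (median -0.09, and -0.22 without control 2). Its most abundant members were F11r, a junctional adhesion molecule gene (0.04 ± 0.27), the scaffold gene Tjp1 (-0.29 ± 0.20) and the angulin gene Lsr (-0.53 ± 0.33). The genes of hemidesmosomes, which anchor epithelia to the basement membrane, had 3 of 7 tested, with Cd151 (-0.16 ± 0.40), Itga6 (0.03 ± 0.11) and Itgb4 (-0.08 ± 0.15). The E-cadherin gene Cdh1, singled out with its values in view, stood at 2.51, 1.54 and 2.54 RPKM in control and 0.80, 1.91 and 1.95 in CTX.

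In the list of epithelial identity genes 6 of 15 were tested, 3 negative and 3 positive. Epcam, an epithelial adhesion gene, had 8.28, 5.16 and 9.14 RPKM in control against 2.73, 4.93 and 4.55 in CTX, a log2 fold change of -0.75 ± 0.26 (SE). CTX 2 lay just below control 2, so the groups were close without overlap. Spint2, a protease inhibitor gene, had 42.2, 42.4 and 43.1 and then 51.8, 46.5 and 45.2, and the splicing regulator gene Esrp2 overlapped (-0.48 ± 0.31). Epcam was lowest in CTX 1 and highest in control 3, as Krt19 was. CTX 1 was also the lowest library for 41.9% of all genes tested, and control 3 the highest for 20.1%.

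Markers of the ovarian surface epithelium and mesothelium were measured because simple keratins are known from these cells. Their summed RPKM was 72.3, 63.8 and 79.5 in control against 41.7, 68.9 and 65.8 in CTX. CTX 1 was lowest and control 3 highest, as for Krt19, and the groups overlapped. Over all genes tested, CTX 1 was lowest in 41.9% and control 3 highest in 20.1%. All 10 listed markers passed the filter and none was at 0. All 10 had negative fold changes, those of Wt1 and Cldn15 near 0, against 51.2% of all genes tested, with a median of -0.32. The groups did not overlap in 4 (Upk1b, Msln, Gpm6a and Muc16, all lower in CTX, against 5.5% of all genes tested). The list was chosen with earlier results of these data known, so these counts are a description without a test. The median was -0.19 without CTX 1. Muc16 had 3.40, 2.5 and 3.51 RPKM in control and 1.65, 1.43 and 1.87 in CTX, and Gpm6a had 5.61, 5.01 and 4.39 and then 2.54, 3.70 and 4.37. The fold changes of the others were -0.57 ± 0.14 (SE) for Upk1b, -0.44 ± 0.14 for Msln, -0.34 ± 0.24 for Upk3b, -0.30 ± 0.20 for Lrrn4 and -0.26 ± 0.14 for Nkain4. Wt1 (-0.0004 ± 0.43), Cldn15 (-0.01 ± 0.16) and Bnc1 (-0.16 ± 0.34) overlapped, as did Upk3b, Lrrn4 and Nkain4. The part of this cell layer in the values of Ppl and the keratins was not tested.

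**Figure D5:**
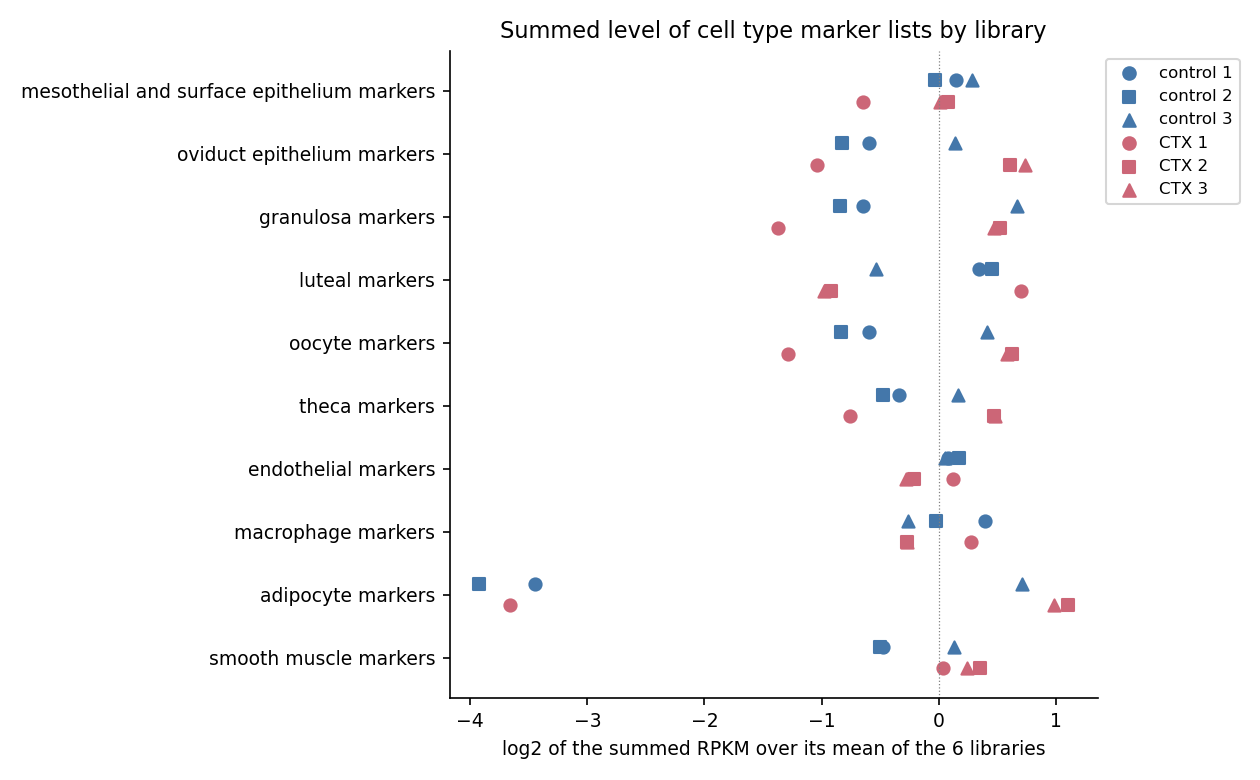
Summed RPKM of 10 marker lists (rows) in each library, as the log2 of the sum over its mean of the 6 libraries (horizontal axis), controls blue and CTX red. The mesothelial sum was lowest in CTX 1 at 41.7 RPKM, and luteal, oocyte, granulosa and adipocyte sums placed control 3 with CTX 2 and 3.

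Marker lists of other cells were summed in the same way. Of 7 oviduct epithelium markers 3 passed the filter, led by Tppp3 and Ccdc39, and their sum was 6.78 to 13.3 RPKM in control and 5.85 to 20.0 in CTX. Foxj1, which defines ciliated cells, was at most 0.21 RPKM, and none of the 7 was at 0 in every library. Sums of the theca list, led by Aldh1a1 and Cyp17a1, were 846 to 1319 in control and 697 to 1637 in CTX, and those of the smooth muscle list, led by Acta2 and Tagln, 416 to 644 and 604 to 755. The endothelial list (Cldn5, Cdh5) had 111 to 120 and 87.8 to 115, the macrophage list (Lyz2, C1qa) 272 to 427 and 270 to 394, and the adipocyte list (Cfd, Plin1) 4.84 to 120 and 5.80 to 158. All of these ranges overlapped between the groups. Among the members of these lists, Insl3 of the theca list (7.38 to 13.2 RPKM in control and 16.9 to 18.0 in CTX) lay above every control, and Tek of the endothelial list (8.34 to 9.22 and 6.39 to 7.23) and Csf1r of the macrophage list (10.9 to 12.6 and 7.54 to 9.29) lay below. These 3 genes were named after their values were seen. They are 1 of 4 tested theca genes higher, and 1 of 6 endothelial and 1 of 5 macrophage genes lower. Over all genes tested, 3.32% were higher and 5.5% lower without overlap. No tested gene of the oviduct, smooth muscle or adipocyte lists was without overlap. The ovarian markers for oocytes, granulosa and luteal cells were present in every library.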

How the data were processed

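For each library a table was deposited that lists 46078 genes by symbol and Ensembl identifier with their level. Bowtie 0.12.2 and mm10 are named in the submitters' processing notes, and the sources used here give neither the read counter nor the annotation or strand use. No header states the unit. The deposited values were taken as RPKM because, for genes of 200 to 1000 exonic bases, values of at most 15 reads came to a whole number of reads, within 0.2, for 96.9 to 97.4% of values, and the step of each library gives its depth. Reads quoted for a gene are approximate. Exon lengths and coordinates came from GENCODE M21 on GRCm38 (45143 identifiers, 98.0%, matched), and 30 damaged symbols were restored. All library pairs differed by more than sampling noise (CTX 2 and 3 least, median chi-square 1.27 per gene against 0.455 from noise), so 6 libraries were kept.

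The 14535 genes that reached 1 RPKM in 3 or more of the 6 libraries were fitted on log2(RPKM + 1) in limma 3.58.1 (R 4.3.3), with a mean-variance trend and Benjamini-Hochberg adjustment, and the script was tested on simulated data. The 10 genes and all lists were chosen with earlier results of these data known. The naming rule took the 10 genes, the 5 genes most like Ppl and Krt8, the 3 most abundant and up to 4 non-overlapping members of each junction list, the 2 most abundant of each marker list, and every mesothelial marker. Partner ratios and promoter motifs were chosen after the data were seen. Alternatives were scaling by an unweighted trimmed mean of log ratios, quantile normalization, other filters and pseudocounts, no trend, the replicate number as a block, and each library left out.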

Additional observations from a re-analysis of the deposited data

How the results depend on the processing

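Limma called 0 genes higher and 0 lower under trimmed-mean scaling, quantile normalization, a fit without a filter, a filter on a mean RPKM of 5, a pseudocount of 0.1 or 0.5 and a fit without a variance trend. Leaving out each library gave 0 to 2 genes higher and 0 to 3 lower, the calls coming without CTX 1 and including none of the 10. With the replicate number as a block 0 genes were called in either direction. Deviations of same-numbered libraries from their group means correlated across genes at 0.40, -0.54 and 0.60 for numbers 1, 2 and 3. Control 2 and CTX 1, of different numbers, reached 0.61. The signs followed the grouping of libraries by luteal sums, so these correlations cannot show whether the numbers pair the samples.

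Of the 10 genes 7 had negative fold changes in the main analysis and 6 or 7 with each library left out, Jup turning without control 2. At a mean RPKM of at least 5 only 6 of the 10 were tested, 3 of them negative. Genes with every CTX library below every control numbered 2 to 4 (4 without control 2, adding Krt18 and Krt19, and 4 without CTX 2, adding Evpl and Dsg2), and those above 1 to 3 (2 without control 3, adding Krt8, and 3 without CTX 1, adding Krt8 and Dsp). Groups separate more easily with a library left out. The share over all genes was not computed there, so these counts are a description alone. The fold change of Ppl ranged from -1.78 (pseudocount 0.1) to -1.30 (without control 1). Trimmed-mean scaling raised the median gene of CTX 1 by 0.11 on the log2 scale and turned none of the 10. Evpl and Dsg2 rested on the fewest reads, 69 to 228 and 90 to 252 per library. Of the 8 junction and filament lists, the tight junction median stayed negative, at -0.22 to -0.06, and those of the other 7 turned sign under 1 to 4 alternatives each. The mesothelial median stayed at -0.43 to -0.19.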
